A study of Mus musculus with 2 samples.

Results

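Microglia, the resident macrophages of the brain, were described here through 9 genes that mark them in undisturbed tissue: *P2ry12*, *P2ry13*, *Tmem119*, *Cx3cr1*, *Csf1r*, *Siglech*, *Selplg*, *Sall1* and *Gpr34*. These were 9 of the 55450 genes listed in 2 single-cell libraries from the cerebral cortex of mice, 1 from controls and 1 after white matter injury (WMI), and each was found by its symbol under 1 gene identifier. Their counts were read in immune-marker cells, defined as cells with at least 1 molecule of at least 2 of the genes *Tyrobp*, *Ptprc*, *Myo1f* and *Apbb1ip*, none of which belongs to the 9. This rule held for 326 of 8755 control cells and 1574 of 7571 WMI cells. All remaining cells, 8429 and 5997, served for comparison.

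Per the labels, both libraries came from C57BL/6 mice 2 weeks old, and the sex of the mice is not given. The WMI animals had the right common carotid artery tied on postnatal day 7 under 1 h of hypoxia, and cortex of the tied side was taken on postnatal day 14. Control cortex came from the same side of control animals, whose operation the labels do not set apart, since the same note on ligation and hypoxia stands on both libraries. The paper names a sham control but also speaks of a control side and an injured side. Its wording thus leaves uncertain whether control cortex came from other animals or the other hemisphere. The labels name control animals. Cells with the female RNAs described below made up 0.263% of control and 64.1% of WMI cells, unlike shares from both hemispheres of the same animals. The paper gives earlier days of surgery and sampling, a longer hypoxia, trypsin-dissociated cells where the labels describe nuclei, and several replicates per group. Each group had 1 library in the files analysed. How many animals each library pools is not given. Since each condition had 1 library, the spread between animals is unknown, no test could be made and no difference was checked in replicates. All intervals are exact 95% intervals that cover counting error only and treat UMIs, or cells, as independent.

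Each RNA molecule carried a unique molecular identifier (UMI), and a level is given below in CPM, the UMIs of a gene per 1000000 UMIs of the same cells. The libraries held 66470806 and 60568639 UMIs in 10288 and 8354 barcodes, with medians of 4180.5 and 5089 per barcode. After removal of poor barcodes and predicted doublets, the kept cells had median depths of 4450 (control) and 5065 UMIs (WMI). The median mitochondrial share was 0.0605% in control cells and 0.448% in WMI cells. *Xist* or *Tsix*, RNAs of the female X chromosome, were found in 23 control cells (0.263%) but 4851 WMI cells (64.1%), so that sex and condition cannot be told apart. The libraries had 36 barcodes in common, 0.350% of the control and 0.431% of the WMI barcodes.

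In the healthy brain, microglia extend fine processes that sense their surroundings, and the genes described here belong to that resting state. *P2ry12* and *P2ry13* encode G protein-coupled receptors for ADP, and P2ry12 steers processes towards ATP released at sites of damage. *Cx3cr1* encodes the receptor for fractalkine, a ligand made by neurons, and *Csf1r* the receptor for the survival factors CSF1 and IL-34. *Gpr34* encodes a receptor for lysophosphatidylserine, *Siglech* a sialic acid-binding surface lectin, *Selplg* the selectin ligand PSGL-1 and *Tmem119* a membrane protein used to tell microglia from other macrophages. *Sall1* encodes a transcription factor that maintains microglial identity. Microglia that respond to injury are known to lower many of these genes.

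By the GENCODE M21 annotation of GRCm38, in which all 55450 gene identifiers of the files were found, *P2ry12* (chr3:59216272-59262871, minus strand) and *P2ry13* (chr3:59207892-59210882, minus strand) are neighbours and lie within *Med12l*, a gene on the opposite strand. *Tmem119* (chr5:113793729-113800516) and *Selplg* (chr5:113818536-113832644) are also near each other, both on the minus strand. *Gpr34* (chrX:13632089-13640858, plus strand) lies within *Cask* on the opposite strand. *Siglech* is at chr7:55768178-55778925 on the plus strand, *Sall1* at chr8:89027235-89044162 on the minus strand and *Cx3cr1* at chr9:119901616-120069879 on the minus strand. Overlap matters where counting ignores strand, which is not given in the sources used here. *Med12l* was at 323 CPM in control and 179 in WMI immune-marker cells, against 171 and 179 in all other cells. *P2ry12* shares exon sequence with *Med12l*, whereas *P2ry13* does not. Whether reads of *P2ry12* and *Med12l* were mixed was not tested. *Cask* was at 324 and 308 CPM in immune-marker cells and 294 and 336 in other cells. *Csf1r* shares exon sequence with *Hmgxb3* on the opposite strand, which was at 47.3 and 44.0 CPM in immune-marker cells. *Cx3cr1* shares exon sequence with *Gm33858* on the opposite strand and spans *Gorasp1*, *Csrnp1* and *Xirp1* on its own strand without exon overlap.

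RefSeq promoter sequences (GRCm38.p6) were read for 5 of the 9 genes. The 250 bases upstream of the start are shown for the pair of neighbouring ADP receptor genes and for *Siglech*, the gene with the lowest ratio between the libraries. Capitals mark GAGGAA or GGAAGT on either strand, forms of the core that ETS factors such as PU.1, the master regulator of myeloid cells, bind.
P2ry12: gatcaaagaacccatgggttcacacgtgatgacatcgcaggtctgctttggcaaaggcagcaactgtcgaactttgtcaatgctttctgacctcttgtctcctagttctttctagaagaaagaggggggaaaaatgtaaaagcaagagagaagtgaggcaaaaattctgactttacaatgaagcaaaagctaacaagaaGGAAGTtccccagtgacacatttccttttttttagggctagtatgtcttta
P2ry13: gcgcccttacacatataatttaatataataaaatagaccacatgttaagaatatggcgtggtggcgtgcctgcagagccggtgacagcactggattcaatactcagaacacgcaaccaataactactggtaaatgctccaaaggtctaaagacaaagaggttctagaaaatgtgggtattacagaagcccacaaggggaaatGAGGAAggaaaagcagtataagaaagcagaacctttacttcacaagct
Siglech: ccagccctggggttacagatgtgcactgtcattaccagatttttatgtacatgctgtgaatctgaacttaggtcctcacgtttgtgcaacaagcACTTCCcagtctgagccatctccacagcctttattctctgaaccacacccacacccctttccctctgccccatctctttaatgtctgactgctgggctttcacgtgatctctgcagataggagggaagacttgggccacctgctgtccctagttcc
The windows are chr3:59262986-59263235 and chr3:59210883-59211132 on the minus strand and chr7:55767934-55768183 on the plus strand. The match in *P2ry12* begins 51 bases before the RefSeq start, which lies 114 bases from the GENCODE one, that in *P2ry13* 48 bases and that in *Siglech* 156 bases before it. Over the 7 windows of the 5 genes, GAGGAA was in 1 and GGAAGT in 3, whereas they were in 23.3% and 19.7% of all 32851 RefSeq windows of this length. The AP-1 motif TGAGTCA was in 0 of the 7 windows and in 4.46% of all. These matches describe letters in the windows and were not tested as sites.

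All 9 genes were higher in immune-marker cells than in other cells of the same library. In the control library their summed level was 2267 CPM (interval 2189 to 2347) in immune-marker cells and 108 (106 to 111) in other cells, a 20.9-fold difference. In the WMI library the summed levels were 1131 (1109 to 1153) and 175 (171 to 179), a 6.47-fold difference. At least a 4-fold difference was found for 9 of 9 genes in the control library, where 4.42% of 17554 genes passed that fold, and for 8 of 9 in the WMI library, where 4.19% of 17649 genes did. The remaining gene, *P2ry13*, was 3.53-fold higher in WMI immune-marker cells than in other WMI cells. *Siglech* had the widest separation in both libraries, 37.1-fold in control (407 against 11.0 CPM) and 8.62-fold in WMI (107 against 12.4). The narrowest separation in the control library was that of *P2ry13*, 8.99-fold, with 26.1 against 2.91 CPM.

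**Figure D1:**
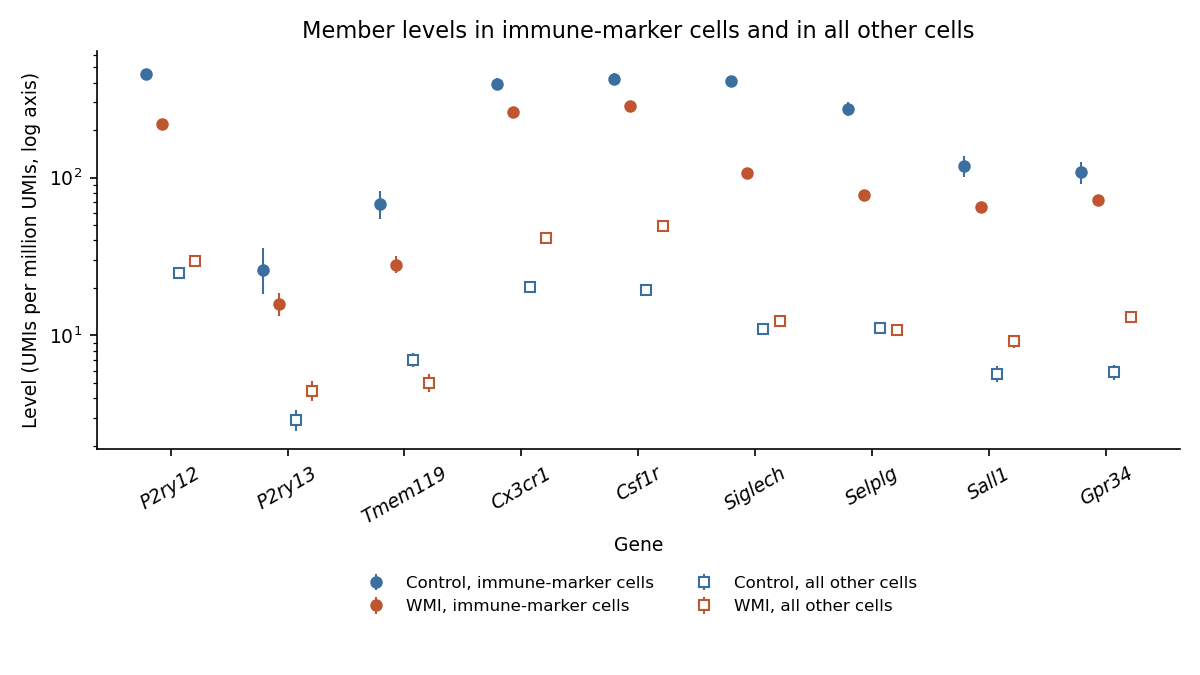
Level of each gene in CPM (log axis) in immune-marker cells (filled circles) and all other cells (open squares) of the Control and WMI libraries; bars are exact 95% Poisson intervals and cover counting error only. Every filled circle lies above the open square of the same gene and library, and in immune-marker cells every WMI circle lies below the control circle.

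The identity of the immune-marker cells was checked on genes outside the rule. A general myeloid list held 8 genes, among them the complement genes *C1qa*, *C1qb* and *C1qc*. All 8 were at least 4-fold higher in control immune-marker cells than in other control cells, beside 4.42% of all genes. In WMI 3 of 8 were, beside 4.19%. The list summed to 1359 CPM in control and 1420 in WMI immune-marker cells, against 101 and 349 in other cells, so the separation was narrower in WMI. At least 2 border macrophage markers were found in 5 control and 33 WMI immune-marker cells, at least 2 monocyte or neutrophil markers in 0 and 11, and at least 2 lymphocyte markers in 0 and 2. The summed border macrophage markers were at 135 and 129 CPM, against 3.79 and 15.5 in all other cells. Of these markers, *Lyve1* and *Pf4* were at 0 in control immune-marker cells. Monocyte and neutrophil markers summed to 2.12 and 50.4 CPM. Leaving out all cells with 2 or more markers of these other types moved the log2 ratio of the summed 9 genes between the libraries from -1.004 to -1.04.

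Other classes of cells carried the 9 genes at low levels. In control excitatory neuron-marker cells (3918 cells) the summed level was 90.0 CPM, and in WMI (2171 cells) it was 127. Astrocyte-marker cells were at 119 and 236, OPC-marker cells at 119 and 196, and oligodendrocyte-marker cells at 115 and 195. Endothelial-marker cells were few, 18 and 16, and their levels of 153 and 245 had wide intervals (73.4 to 282 and 154 to 371). Among non-immune classes the control levels ran from 75.8 in interneuron-marker cells to 186 in pericyte- or fibroblast-marker cells, whose 12 cells gave an interval of 96.0 to 324. The intervals of the astrocyte, OPC and oligodendrocyte classes overlapped one another in the control library. Each of the classes with over 200 cells was higher in WMI than in control by more than its counting error. UMIs of the 9 genes were thus counted in every class, and no expression by those classes is read from them.

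**Figure D2:**
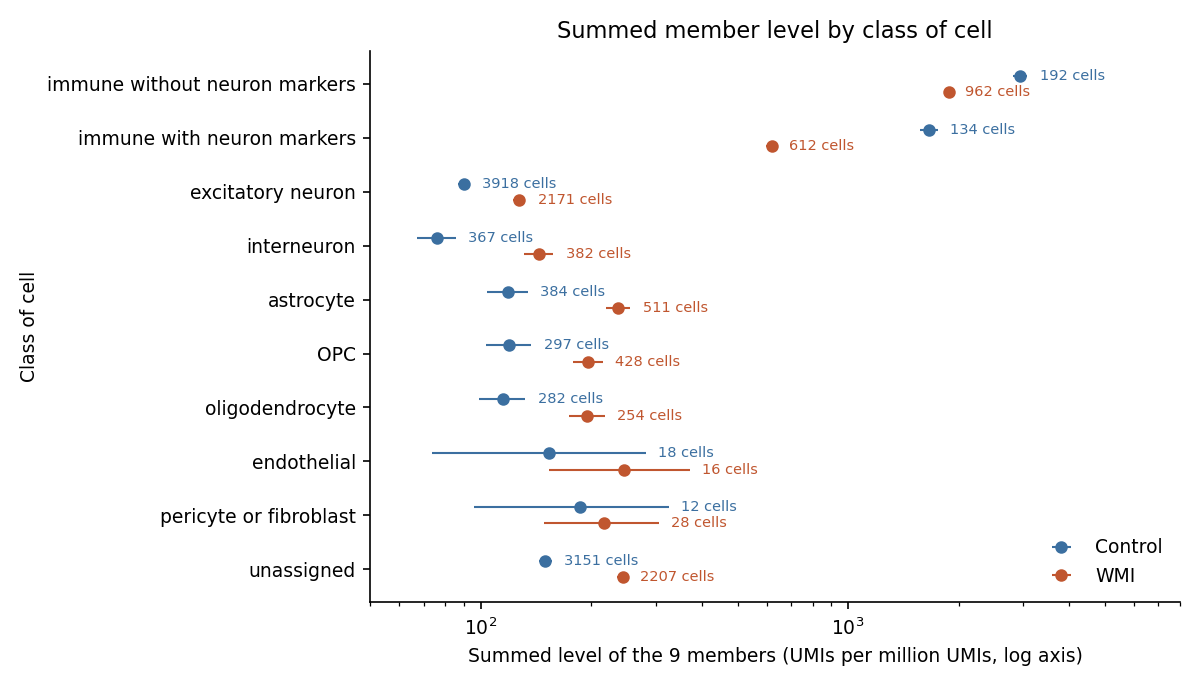
Summed level of the 9 genes in CPM (log axis) by class of cell in the Control and WMI libraries, with the number of cells beside each point and exact 95% Poisson intervals (counting error only) as bars. Both immune classes stand above all other classes in both libraries, and WMI is lower than control in the immune classes but higher in the others.

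Outside immune-marker cells, the genes did not move together between the libraries. *Csf1r* was at 19.5 CPM in other control cells and 49.2 in other WMI cells, a log2 ratio of 1.34 (1.23 to 1.44). *Gpr34* (5.85 and 13.03) and *Cx3cr1* (20.3 and 41.2) were also at least 2-fold higher, with log2 ratios of 1.16 and 1.02. These 3 of 9 genes stand beside 5.02% of 19419 genes past the same fold. *Siglech* (11.0 and 12.4) and *Selplg* (11.1 and 10.8) had log2 ratios of 0.18 (0.0082 to 0.34) and -0.040 (-0.21 to 0.13), and *Tmem119* was lower in WMI, at 7.04 and 4.99 CPM with a log2 ratio of -0.50 (-0.74 to -0.26). The other 3 genes, *P2ry12*, *P2ry13* and *Sall1*, had ratios of 0.24, 0.62 and 0.69.

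The comparison of WMI with control in immune-marker cells asks how the resting microglial genes stood after the injury. All 9 were lower in the WMI library, with log2 ratios from -1.93 to -0.57 and a median of -0.86, beside a median of 0.026 over the 12773 genes with at least 50 UMIs. At least a 2-fold lower level was found for 4 of 9 genes, beside 2.35% of all genes: *Siglech*, *Selplg*, *Tmem119* and *P2ry12*. The summed level was 2.01-fold lower. These values rest on all immune-marker cells, about which 2 facts bear on every ratio. At least 2 excitatory neuron markers or at least 2 interneuron markers were also found in 134 control (41.1%) and 612 WMI (38.9%) immune-marker cells, and such cells may hold RNA of more than 1 cell. Of 500 artificial doublets planted in each library, 408 and 392 were recognised, so some real doublets may remain. Each ratio is therefore given also for the 192 control and 962 WMI immune-marker cells below both limits. These are called cells without neuron markers, though each could still hold 1 marker of either kind.

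Among the receptors, *P2ry12* was at 452 CPM (641 UMIs) in control and 218 (1952 UMIs) in WMI immune-marker cells, a log2 ratio of -1.06 (-1.18 to -0.92). Without cells with neuron markers it was at 566 and 362, a ratio of -0.64 (-0.81 to -0.47). *P2ry13*, with 37 and 141 UMIs, went from 26.1 to 15.7 CPM, a ratio of -0.73 (-1.26 to -0.17), and its ratio without cells with neuron markers, -0.30, had an interval of -1.02 to 0.48. The level of *P2ry12* was lower in WMI under both definitions, whereas for *P2ry13* no difference was detectable at this depth in the stricter set. *Cx3cr1* was at 392 and 261 CPM, with a log2 ratio of -0.59 (-0.72 to -0.45), and at 510 and 427, with -0.26 (-0.43 to -0.083), without cells with neuron markers. For *Csf1r* the levels were 424 and 285 (-0.57, interval -0.70 to -0.44) and in the stricter set 554 and 478 (-0.21, interval -0.37 to -0.045). The lysophosphatidylserine receptor gene *Gpr34* was at 108 and 72.3 (-0.58, interval -0.84 to -0.32), and at 141 and 128 without cells with neuron markers (-0.13, interval -0.45 to 0.20). *Cx3cr1*, *Csf1r* and *Gpr34* thus had the smallest differences of the 9 in the full set, and for *Gpr34* no difference was detectable beyond counting error in the stricter set.

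The surface genes *Siglech* and *Selplg* had the lowest ratios. *Siglech* was at 407 CPM (577 UMIs) in control and 107 (959 UMIs) in WMI, which is 3.81-fold lower, with a log2 ratio of -1.93 (-2.08 to -1.78), and 0.204% of all genes had a lower one. Without cells with neuron markers it was at 555 and 178 CPM, a ratio of -1.64 (-1.82 to -1.45). *Selplg* was at 272 (385 UMIs) and 78.1 (700 UMIs), 3.48-fold lower, with ratios of -1.80 (-1.98 to -1.62) and, in the stricter set, -1.43 (-1.66 to -1.21). Both remained at least 2-fold lower in the stricter set, the only 2 of 9 that did, beside 1.73% of 9872 genes. *Tmem119* was at 67.8 CPM (96 UMIs) in control and 28.1 (252 UMIs) in WMI, a ratio of -1.27 (-1.61 to -0.91), and at 77.8 and 45.8 in the stricter set, a ratio of -0.77 (-1.22 to -0.29). *Sall1*, the transcription factor gene, was at 118 and 65.0, a ratio of -0.86 (-1.11 to -0.60), and at 149.6 and 105 in the stricter set, a ratio of -0.51 (-0.83 to -0.18). The intervals of *Siglech* and *Selplg* lay below those of the other 7 genes in the full set, though the upper bound of *Selplg*, -1.62, all but met the lower bound of *Tmem119*, -1.61.

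**Figure D3:**
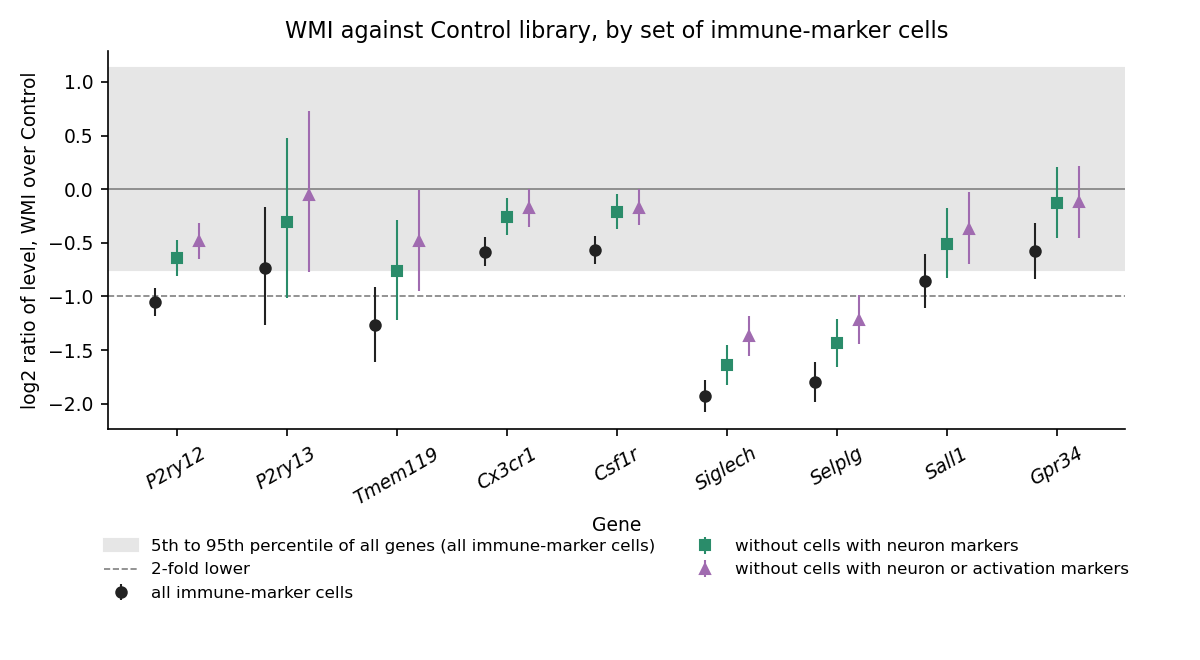
log2 ratio of the level in WMI over Control for each gene, in 3 sets of immune-marker cells. Circles are all such cells, and squares leave out cells with neuron markers. Triangles also leave out cells with 2 or more activation markers. Bars are exact conditional 95% intervals (counting error only). The grey band spans the 5th to 95th percentile of all genes in all immune-marker cells. *Siglech* and *Selplg* stay below the dashed line of a 2-fold lower level in all 3 sets, while *Cx3cr1*, *Csf1r* and *Gpr34* lie close to 0 in the stricter ones.

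The number of cells that met the rule also differed between the libraries, and was higher in WMI where the levels were lower. Immune-marker cells took 3.72% of control cells (3.34 to 4.14) and 20.8% of those from WMI (19.9 to 21.7), a difference of 17.1 percentage points (16.1 to 18.1), and those without neuron markers 2.19% and 12.7%. The share rests on 4 genes whose RNA was also more widespread outside the class in WMI: *Tyrobp* was found in 2.06% of other control cells and 10.3% of other WMI cells, and *Apbb1ip* in 6.98% and 14.4%. Control cells with exactly 2, 3 and 4 of the rule genes numbered 214, 105 and 7, and their summed levels of the 9 genes were 1883, 3088 and 3463 CPM. In WMI the corresponding 883, 516 and 175 cells were at 642, 1836 and 2247. As a ratio of levels, the difference between libraries was thus widest in cells that met the rule with 2 genes. With at least 3 rule genes required, the log2 ratio of the summed level was -0.68 instead of -1.004, and 3 of 9 genes were at least 2-fold lower. The share of all genes past that fold is not given under this requirement, so the count is not read further. The part of background RNA in the ratios was not tested.

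Cells with neuron markers held less of the 9 genes in both libraries, but far less in WMI. In control the summed level was 2946 CPM (2817 to 3079) without and 1661 (1570 to 1756) with neuron markers. In WMI it was 1884 (1839 to 1929) without and 619 (598 to 640) with them. The 4 excitatory neuron markers summed to 498 and 466 CPM in all immune-marker cells and to 272 and 240 in those without neuron markers, against 633 and 570 in other cells. WMI cells with neuron markers were also deeper, with a median of 5334.5 UMIs against 3220.5 without them, and the corresponding control medians were 3890.5 and 3271.5. The summed level was 1.56-fold lower in WMI among cells without neuron markers.

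The ratios were also read without cells that held the female X-linked RNAs. Among immune-marker cells, *Xist* or *Tsix* was found in 2 control cells and 1033 WMI cells (65.6%). Only the 324 control and 541 WMI immune-marker cells without these RNAs were then compared. Their summed level was 1.62-fold lower in WMI (log2 ratio -0.70), and all 9 ratios stayed below 0. Of the 9 genes, 2 were at least 2-fold lower. The share of all genes past that fold is not given for these cells, so the count is not read further. Cells without a UMI of *Xist* are not thereby male, since the RNA can be missed at low depth.

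How the molecules of the 9 genes were divided among them is a measure that does not use the total RNA of the cells. In immune-marker cells without neuron markers, *Siglech* gave 18.8% (17.1 to 20.6) of the 1969 member UMIs in control and 9.47% (8.78 to 10.2) of the 6833 in WMI. *Selplg* gave 12.3% (10.9 to 13.9) and 7.14% (6.54 to 7.78). *Csf1r* took 18.8% (17.1 to 20.6) and 25.4% (24.4 to 26.4), and *Cx3cr1* 17.3% (15.7 to 19.1) and 22.7% (21.7 to 23.7). The share of *Gpr34* was 4.77% (3.87 to 5.81) in control and 6.82% (6.23 to 7.44) in WMI. *P2ry12* made up 19.2% in both libraries, with a log2 ratio of its shares of 0.0014 (-0.16 to 0.17), and the shares of *P2ry13*, *Tmem119* and *Sall1* differed by less than their counting error. Shares sum to 100%, so a larger share shows only that a gene was lower in WMI by less than the sum of the 9, not that its level was higher.

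The shares were also read in cells with neuron markers and in excitatory neuron-marker cells outside the immune class. *Siglech* gave a log2 ratio of shares of -0.81 (-1.07 to -0.55) there and -0.99 (-1.18 to -0.80) in cells without neuron markers, and *Selplg* gave -0.83 and -0.79. *Csf1r* had ratios of 0.43 in both sets, and *Cx3cr1* of 0.48 and 0.39. *Gpr34* had 0.22 with an interval of -0.22 to 0.66 in cells with neuron markers and 0.51 (0.19 to 0.85) in those without. The direction was therefore shared by both sets for each of these genes, and for *Gpr34* it was beyond counting error in 1 of them. Excitatory neuron-marker cells, which should lack these genes, had ratios of the same sign, -0.38 (-0.65 to -0.11) for *Siglech*, -0.70 (-0.97 to -0.42) for *Selplg*, 0.65 for *Csf1r*, 0.22 for *Cx3cr1* and 0.61 (0.30 to 0.92) for *Gpr34*. For these genes the direction of the shift was thus not particular to immune-marker cells. In excitatory neuron-marker cells *Tmem119* (-1.18, interval -1.58 to -0.79) and *P2ry12* (-0.49, interval -0.66 to -0.32) also took smaller shares in WMI. In immune-marker cells without neuron markers their ratios were -0.12 (-0.58 to 0.36) and 0.0014 (-0.16 to 0.17), so the 2 patterns differed there. The part of background RNA in the shift was not tested.

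**Figure D4:**
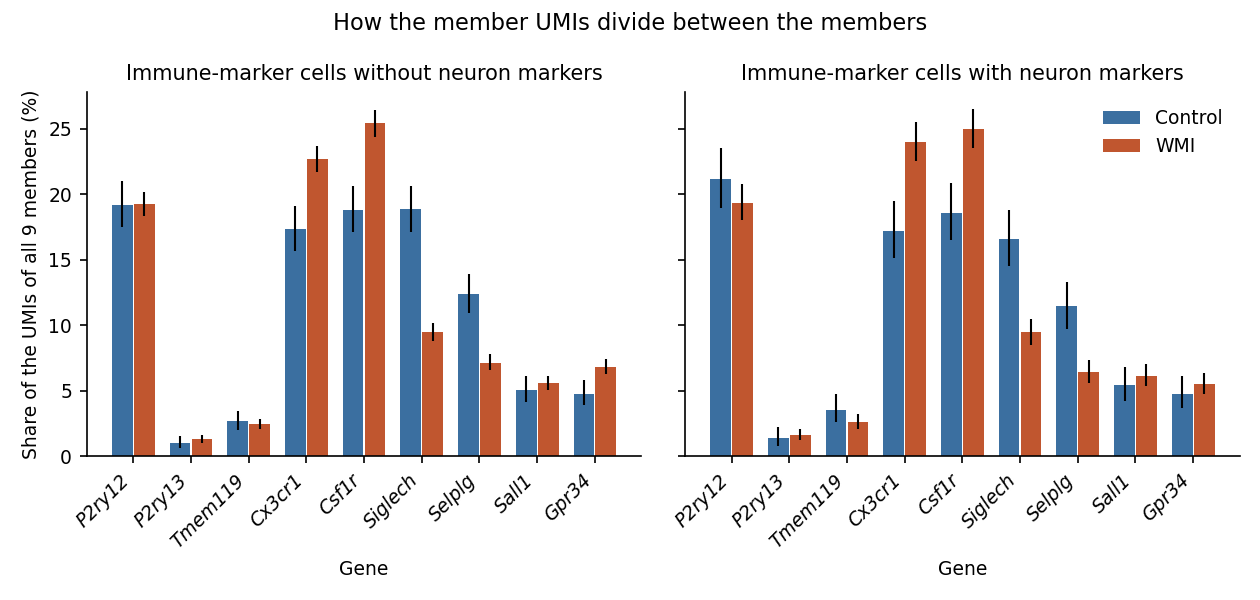
Share of each gene among the UMIs of all 9 genes (percent) in immune-marker cells without (left) and with (right) neuron markers, for the Control and WMI libraries; bars start at 0 and error bars are exact 95% binomial intervals (counting error only). *Siglech* and *Selplg* take a smaller share in WMI and *Cx3cr1* and *Csf1r* a larger one in both panels, while *P2ry12* is at 19.2% in both libraries in the left panel.

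Levels were also set against other RNA of the same cells. In all immune-marker cells the log2 ratio of the summed 9 genes was -0.70 relative to the summed rule genes and -1.07 relative to the summed general myeloid list. Per 100 UMIs of the rule genes, cells without neuron markers had 36.6 UMIs of *Siglech* in control and 11.0 in WMI, a log2 ratio of -1.73, and 23.9 and 8.33 UMIs of *Selplg*, a ratio of -1.52. For *Sall1* the values were 9.85 and 6.50, a ratio of -0.60. A reference shifts the ratios of all 9 genes by the same amount, so their order is that of the levels, and the rule genes also chose the cells.

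The share of cells in which a gene was found was compared after each cell had been thinned at random to 1000 UMIs, which left out no kept cell. *P2ry12* was then found in 38.04% (32.7 to 43.5) of control and 22.4% (20.3 to 24.5) of WMI immune-marker cells, beside 2.68% and 3.45% of excitatory neuron-marker cells, which should lack it. *Siglech* was found in 36.2% (31.0 to 41.7) and 11.9% (10.4 to 13.6), beside 1.56% and 1.89%, and *Selplg* in 26.1% (21.4 to 31.2) and 10.2% (8.78 to 11.8), beside 1.89% and 1.47%. *Cx3cr1* was found in 30.1% (25.1 to 35.4) and 27.4% (25.3 to 29.7) and *Csf1r* in 39.0% (33.6 to 44.5) and 31.2% (28.9 to 33.5), beside neuronal shares of 2.48% and 4.38% and of 2.96% and 6.22%. Before thinning, immune-marker cells had median depths of 3443.5 and 3641 UMIs and excitatory neuron-marker cells of 7278.5 and 8520, and the unthinned shares of *P2ry12* were 68.4% and 48.4%. *Siglech* and *Selplg* were thus found in a smaller share of the immune-marker cells in WMI, while the shares of *Cx3cr1* overlapped between the libraries within counting error. Without cells with neuron markers *Siglech* was found in 41.7% and 13.9%, *Selplg* in 27.6% and 12.3% and *Csf1r* in 42.2% and 36.3%. *Cx3cr1* was found there in 29.7% (23.3 to 36.7) and 33.9% (30.9 to 37.0). Another random thinning gave 34.9% and 32.0% for *Cx3cr1*, so no order is read from it.

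The remaining genes were found in fewer cells. *Sall1* was detected in 15.0% (11.3 to 19.4) of control and 8.83% (7.48 to 10.3) of WMI immune-marker cells, *Tmem119* in 8.59% (5.78 to 12.2) and 3.49% (2.64 to 4.52), *Gpr34* in 11.96% (8.65 to 16.0) and 9.66% (8.24 to 11.2) and *P2ry13* in 3.68% (1.92 to 6.34) and 2.54% (1.82 to 3.44). For *P2ry13*, another random thinning gave 1.84% in control, which lies below the first interval, so no order is read from it. At least 1 of the 9 genes was present in 83.1% (78.6 to 87.0) of control and 61.8% (59.3 to 64.2) of WMI immune-marker cells, against 11.3% and 17.0% of excitatory neuron-marker cells. At least 2 were present in 62.9% and 36.1%, against 1.79% and 2.99%. The mean number of the 9 genes per immune-marker cell was 2.09 in control and 1.28 in WMI, and without neuron markers it was 2.18 and 1.51. No control immune-marker cell held more than 5 of the 9 after thinning, and in WMI the highest number was 8. These highest numbers come from 326 control and 1574 WMI cells, so no order is read from them.

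Genes that myeloid cells raise when they take up lipid and debris were found together in WMI cells. Of 4 activation markers (*Gpnmb*, *Plin2*, *Lgals3* and *Cd36*), at least 2 were found in 0 of 326 control immune-marker cells and in 241 of 1574 WMI cells (15.3%). The limit set for a count of 0, which is 3 cells or 0.920% of the 326, is not an exact interval. With the markers counted after thinning, 53 WMI cells held at least 2. The summed level of the 4 markers also differed in all other cells, at 2.14 CPM in control and 39.8 in WMI, so background RNA may add to these counts and its part was not tested. Within the WMI library, cells without neuron markers were compared by these markers, 166 cells with at least 2 and 796 with fewer. All 9 genes had ratios below 0 in cells with activation markers, and 5 of 9 were at least 2-fold lower, beside 4.89% of 9228 genes. *Siglech* was at 38.8 CPM (29 UMIs) against 215 (618 UMIs), a log2 ratio of -2.47 (-3.06 to -1.93). *Tmem119*, with 6 UMIs, was at 8.03 against 55.6, a ratio of -2.79 (-4.26 to -1.64), and *P2ry13*, with 5 UMIs, at 6.69 against 28.8, a ratio of -2.11 (-3.77 to -0.83). *Selplg* was at 49.5 against 157 (-1.66) and *P2ry12* at 197 against 405 (-1.04). *Sall1* was at 62.9 against 116 (-0.88) and *Cx3cr1* at 332 against 452 (-0.44). *Csf1r*, at 427 against 492, had a ratio of -0.20 (-0.38 to -0.028), and *Gpr34*, at 126 against 129, one of -0.038 (-0.38 to 0.29). In these cells *Tmem119* and *P2ry13* were near their levels in all other WMI cells, 4.99 and 4.45 CPM, while *Csf1r* stood far above its level there, 49.2.

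Among WMI cells without neuron markers, the summed level was 2146 CPM with 0 activation markers, 1831 with 1, 1247 with 2 and 1247 with 3 or more. Over all WMI immune-marker cells no such order was seen, with 1079.9 (1053 to 1107), 1269, 1109.9 and 1197 CPM, and 41.3% of those with 0 markers but 23.8% of those with 3 or more held neuron markers. Among WMI cells without neuron markers, those with more activation markers were deeper, with medians from 2948 UMIs at 0 to 4185.5 at 3 or more. The medians over all WMI immune-marker cells were 3549, 3508, 4105.5 and 4386. A deeper cell is more likely to show a marker. Without neuron markers, the log2 ratio of cells with at least 2 markers to cells with 0 was -0.78 (-0.89 to -0.68), and -0.98 with the markers counted after thinning. Over all WMI immune-marker cells the levels were 1135 CPM with at least 2 and 1079.9 with 0 markers, and 1067 and 1085 with the markers counted after thinning. Among cells without neuron markers, those with 2 or more activation markers had monocyte and neutrophil markers at a summed 9.37 CPM, against 122 in those with fewer. Border macrophage markers summed to 349 against 196. Their part in the result was not tested.

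**Figure D5:**
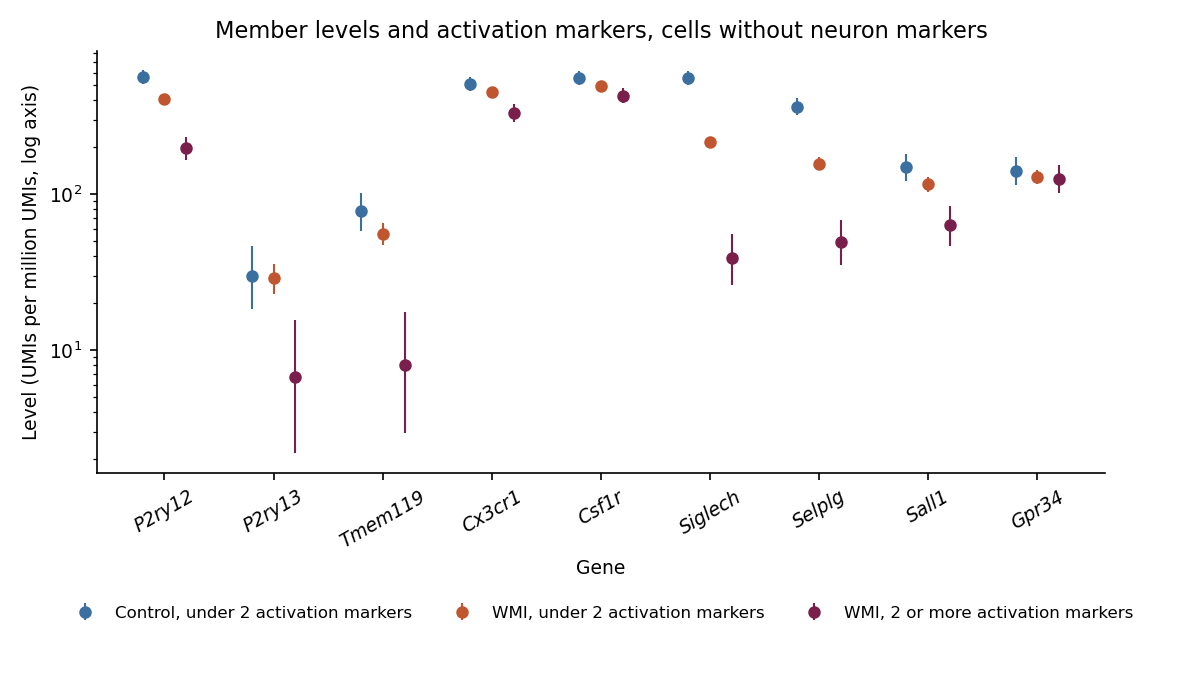
Level of each gene in CPM (log axis) in immune-marker cells without neuron markers, for 192 Control and 796 WMI cells with under 2 activation markers and 166 WMI cells with 2 or more; bars are exact 95% Poisson intervals (counting error only). For *Siglech*, *Selplg* and *P2ry12* the levels step down over the 3 groups, whereas *Gpr34* stays within its intervals.

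The difference between the libraries was also read without cells with neuron markers or with 2 or more activation markers. This choice was made after the data had been seen. Cells with 1 activation marker stayed in, 5 in control and 247 in WMI. The 4 activation markers still summed to 8.98 CPM in control and 130 in WMI. *Siglech* was at 555 CPM in control and 215 in WMI (log2 ratio -1.37, interval -1.56 to -1.18) and *Selplg* at 364 and 157 (-1.22, interval -1.44 to -0.98). *P2ry12* was at 566 and 405, a ratio of -0.48 (-0.65 to -0.31). The other 6 genes had ratios between -0.49 (*Tmem119*) and -0.054 (*P2ry13*), and the intervals of *P2ry13*, *Gpr34* and *Cx3cr1* included 0. Over the same cells the median of 9044 genes was 0.075.

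Other genes of the same pathways were read from lists. Of the ligands and partners, *Cx3cl1*, the fractalkine gene, was at 70.4 and 69.3 CPM in other cells of control and WMI, and *Il34* at 27.8 and 24.8. *Csf1* was higher in WMI, at 8.47 (12 UMIs) and 23.8 (213 UMIs) in immune-marker cells, a log2 ratio of 1.49 (0.65 to 2.46), and at 4.2 and 9.42 in other cells. *Entpd1*, which encodes the enzyme that breaks down ATP and ADP at the surface of microglia, was at 316 and 156 in immune-marker cells, a ratio of -1.01 (-1.17 to -0.86), and -0.55 without cells with neuron markers. Of 7 such genes 4 had at least 50 UMIs, and 1 was at least 2-fold lower and 1 at least 2-fold higher, beside 2.35% and 6.04% of all genes. Among 6 other purinergic and related receptor genes, 3 had enough UMIs and 0 passed 2-fold, and the UDP receptor gene *P2ry6* had a ratio of -0.31 (-0.58 to -0.034), which was 0.13 (-0.22 to 0.49) without cells with neuron markers.

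Of 10 regulators of microglia, 1 was at least 2-fold lower in WMI immune-marker cells and 0 were higher, beside 2.35% and 6.04% of all genes, and their median log2 ratio was -0.22. Without cells with neuron markers 1 was lower and 1, *Irf8* (1.22), was higher, beside 1.73% and 8.94%, and the median was -0.060. The lower gene in both sets was *Tgfbr1*, which encodes the type I receptor for TGF-β, the factor that keeps microglia in their resting state. It was at 853 CPM in control and 286 in WMI, a ratio of -1.57 (-1.67 to -1.47), and -1.21 (-1.34 to -1.09) without cells with neuron markers. *Tgfbr2*, for the type II receptor, was at 175 and 161 (-0.12, interval -0.32 to 0.077), and *Tgfb1* at 79.8 and 44.7 (-0.83, interval -1.14 to -0.52). *Spi1*, which encodes PU.1, was at 72.0 and 76.3 (0.084, interval -0.22 to 0.40), *Irf8* at 71.3 and 91.0 (0.35) and *Runx1* at 294 and 355 (0.27). Of the 10 regulators, 6 had ratios below 0, and the interval of *Spi1* included 0.

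Of 16 other genes linked with microglia at rest, 5 were at least 2-fold lower in WMI and 0 higher, beside 2.35% and 6.04% of all genes, with a median log2 ratio of -0.66. *Entpd1*, also on the list of ligands and partners, is counted among the 5. Without cells with neuron markers 3 were lower and 1 was higher, beside 1.73% and 8.94% of all genes, and the median was -0.31. Among the 3 were *Crybb1* (-1.23, interval -1.62 to -0.82) and *Golm1* (-1.21, interval -1.56 to -0.86), and the 1 was *Trem2* (1.23, interval 0.82 to 1.66), which encodes a lipid-sensing receptor. The 9 genes and the lists of resting genes, regulators and activated myeloid genes were chosen with earlier results of these data known. None is independent support.

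Activated myeloid genes moved the other way. Of 15, 13 had at least 50 UMIs and 11 of these were at least 2-fold higher in WMI immune-marker cells, beside 6.04% of all genes, with a median log2 ratio of 3.71. In all other cells 12 of 13 measured genes of this list were at least 2-fold higher in WMI, with a median of 2.95, beside 5.02% of all genes. *Apoe*, which encodes a lipid carrier, was at 140 CPM in control and 2368 in WMI, a log2 ratio of 4.08 (3.87 to 4.28). In other cells it was at 96.7 and 750, a ratio of 2.95. *Lpl*, for lipoprotein lipase, was at 11.3 and 78.6 (2.80) and the protease gene *Ctsb* at 121 and 488 (2.01). *Gpnmb* had 1 UMI in control immune-marker cells and 1318 in WMI (147 CPM).

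The genes whose pattern was most like that of the 9 were sought over 17 groups of at least 50 cells, which were the immune subgroups and the cell classes of both libraries. Likeness was the Pearson correlation of log2(level + 1) with the mean of the 9, over 15430 genes with at least 200 UMIs, and it is a description since groups of a library share its background. Among the 10 most alike were *Ntpcr*, *Tgfbr1*, *Ptgs1*, *Zfhx3*, *Zfp710*, *F11r*, *Vsir*, *Gtf2h2* and *Ltc4s*, with coefficients from 0.988 (*Ntpcr*) to 0.977 (*Ltc4s*). Against the other 8 genes, the members themselves had coefficients from 0.984 (*P2ry12*) to 0.860 (*Tmem119*). *Ptgs1*, which encodes cyclooxygenase 1, had 155 UMIs in control and 380 in WMI immune-marker cells, a log2 ratio of -1.37.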

How the data were processed

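The authors deposited 1 matrix of UMI counts per library, raw whole-number counts per gene and barcode. Per the file headers they come from Cell Ranger 6.1.1, and the submitters' processing notes name Seurat and the build mm9. All 55450 gene identifiers matched GENCODE M21 of GRCm38, whose positions are given here. Whether counting used strand or introns is not given in the sources used here.

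Barcodes with at least 1000 UMIs, at least 500 genes and at most 10% mitochondrial UMIs were kept. This left out 748 control and 241 WMI barcodes. Doublets were predicted from simulated mixtures, 2 per cell, by 30 nearest neighbours in 30 principal components of 2000 variable genes, at a rate of 0.8% per 1000 barcodes, and 785 and 542 were removed. Classes needed at least 2 of their 4 markers and more than any other class, with the immune rule first. A level in CPM is the summed UMIs of a gene per 1000000 summed UMIs of the same cells. Poisson, Clopper-Pearson and conditional binomial intervals are exact at 95%. Ratios were computed for genes with at least 50 UMIs over both groups, and the folds counted were 2 between libraries and 4 between cells. No test was run, since each group has 1 library. The scripts were tested on simulated data. Genes are named if they are members, rule genes, in the lists given, overlap a member in the annotation or are among the 10 most alike. The members and lists were chosen with earlier results of these data known. Alternatives changed the cell filter, doublets, rule, denominator and classes left out. Python 3.11.15 with numpy 2.4.6, pandas 2.3.3, scipy 1.17.1, scikit-learn 1.9.0 and matplotlib 3.10.9 was used. Results that need certain genes of the lists are not reported here.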

Additional observations from a re-analysis of the deposited data

How the results depend on the processing

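The log2 ratio of the summed 9 genes between WMI and control immune-marker cells, -1.004, stayed below 0 under all alternatives. It was -0.83 with doublets kept, -0.68 with at least 3 of 4 rule genes, -0.53 with the rule applied after thinning, -0.67 as a mean over cells, -1.17 at a mitochondrial share of at most 1%, -0.70 without *Xist* or *Tsix* cells, -0.65 without cells with neuron markers and -1.12 with the level of excitatory neuron-marker cells subtracted. With alternatives chosen after seeing the data it was -0.41 (at least 3 rule genes, without cells with neuron markers) and -0.52 (under 2 activation markers, without cells with neuron markers). The number of genes at least 2-fold lower, 4, was 2 under the thinned rule, as a mean over cells, without *Xist* or *Tsix* cells, without cells with neuron markers and under both added alternatives. It was 7 at a fold of 1.5 and 2 at a fold of 3. Beside these counts, a share of all genes is given only at 2-fold in the main set (2.35%) and without cells with neuron markers (1.73%). The other counts are not read further. The share of immune-marker cells, 17.1 percentage points higher in WMI, was higher by 18.2 percentage points with doublets kept and 5.80 under the thinned rule. It was higher by 7.85 with at least 3 rule genes, 10.5 without cells with neuron markers and 5.44 with both of these requirements. The log2 ratio of immune-marker to other cells was 4.09 and 2.55 (control and WMI) with doublets kept, 4.49 and 3.10 with at least 3 rule genes and 3.93 and 2.42 as a mean over cells. Without thinning at least 1 gene was found in 93.9% and 89.1% of immune-marker cells, and 4.43 and 2.92 genes per cell. With thinning and at least 3 rule genes the values were 93.75% and 76.0%, and 2.46 and 1.72. The ratio by activation markers was -0.98 with markers counted after thinning. *Cx3cr1* turned to 0.059 under the thinned rule. *Csf1r* and *Gpr34* turned to 0.14 and 0.15 with at least 3 rule genes and without cells with neuron markers. The cause was not tested.

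No paired analysis was possible because each group has 1 library. Sex, mitochondrial share and condition cannot be told apart, the spread between animals is unknown, and depth limits *P2ry13* and *Tmem119* most.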

Other observations

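Immune-marker cells without neuron markers that held at least 2 border macrophage markers numbered 3 in control and 26 in WMI. In WMI their summed level of the 9 genes was 1786 CPM (1556 to 2040), beside 1884 in all WMI immune-marker cells without neuron markers, and in control it was 1017 (488 to 1871) from 10 UMIs. *P2ry12* was at 535 CPM in the 26 cells, *Csf1r* at 658 and *Cx3cr1* at 304. *Siglech* had 7 UMIs there, *Selplg* 4 and *Tmem119* 2.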
